A study of Rattus norvegicus with 6 samples.

Results

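Olfactory receptor genes encode the odorant-sensing G protein-coupled receptors of olfactory sensory neurons. They form the largest gene family of the rat and lie in clusters on many chromosomes. Chromatin peaks assigned to them were taken from the authors' annotated table of α1ACT-only peaks, by every row whose gene symbol is Olr followed by digits. The rule found 6809 peaks at 828 receptor genes, out of 159452 peaks in the table. It uses names and no measured value. An olfactory receptor gene carries its coding sequence in a single exon, usually behind short untranslated exons. Each sensory neuron is known to transcribe 1 receptor allele while the other receptor genes are held in silent heterochromatin, a choice that depends on the transcription factors Lhx2 and Ebf and on enhancers between the genes. PC12, the rat pheochromocytoma line studied here, comes from the neural crest and is not an olfactory cell, and none of the files measures transcription.

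The chromatin came from PC12 cells that stably express human α1ACT (the libraries titled Q11), a transcription factor translated from the transcript of the calcium channel gene CACNA1A, and from PC12 cells with the empty pCDNA3 vector. The labels give passages 18 to 20 for both lines, although the series' design text mentions tissue collected at day 3. Every library is also labelled with crosslinking in 1% formaldehyde for 10 min. Each line was precipitated with the anti-FLAG antibody M2 and with an antibody labelled 1804, whose target is not given, and each had an input that was not used here. Every group held 1 library, so differences carry no error between replicates and p-values are not printed. With M2 the lists held 81 peaks (α1ACT) and 244 peaks (empty vector), and with 1804 they held 161730 (α1ACT) and 272 (empty vector). The annotated table draws on the α1ACT 1804 list, and unless another list is named, all values are from it. The depth of the libraries is unknown. The intervals given are exact 95% intervals, which cover counting error only, and neighbouring peaks are not independent of each other. Signal is the authors' value per peak, and coordinates are 1-based on rn5, the build in the submitters' processing notes. The lowest signal was 2.00 in the α1ACT 1804 list, 14.0 in empty-vector 1804, 19.0 in empty-vector M2 and 53.6 in α1ACT M2. The scaling of signal between libraries is not stated. That a weak peak is missing from the other 3 lists therefore does not show that signal was absent there.

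The peaks assigned to receptor genes lay mostly between genes and seldom at the receptor genes themselves. Of the 6809 peaks, 6278 were annotated as distal intergenic, which is 92.2% (91.5 to 92.8), beside 112618 of the 152643 peaks of all other genes (73.8%) and 74.6% of all annotated peaks. It was 83.6% for the vomeronasal receptors and 87.2% for the trace amine and taste receptors. Receptor gene models are short, with a median of 939 bp against 18779 bp for the loci of all other genes. The part of this length in the intergenic share was not tested. Within 1000 bp of the annotated start lay 48 receptor peaks, at 46 genes. That is 0.705% of the receptor peaks (0.520 to 0.934), beside 5.98% of the peaks of all other genes and 5.75% of all annotated peaks. Among the vomeronasal receptors, which are pheromone receptors, 10 of 4151 peaks (0.241%) lay so near. Among the trace amine and taste receptors (Taar and Tas genes) it was 1 of 149 (0.671%, 0.0170 to 3.68). The receptor share was below that of the other genes on each of the 16 chromosomes that carried receptor peaks. Chromosomes 4, 5, 11, 17, 19 and X had 0 near receptor peaks. Where receptor peaks were few this tells little. On chromosome X it was 0 of 138 against 1.24%, and on chromosome 9 it was 1 of 31 against 5.03%. Of the 828 genes, 5.56% had a peak within 1000 bp of the start, against 43.2% of all genes in the table. The intervals of the receptor share and of the other genes' share did not overlap, but with 1 library the difference has no replicate check.

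The start of a receptor gene in this annotation is, with few exceptions, the start codon. Of the 899 receptor loci, 94.5% had a length that is a multiple of 3, and the median coding length was 939 bp, against 34.5% and a median of 18779 bp for the loci of all other genes. RefSeq promoters of the GRCr8 assembly, which run from 250 bases before the start to 50 after it, could be matched by gene ID to 691 of the receptor genes with a peak. In these the annotated start was an ATG in 689, or 99.7%, against 11.6% of 24206 promoters of all genes. Distances of receptor peaks are therefore distances from the coding sequence, and the transcription starts upstream of it are not in the annotation used.

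In 3 genes a peak lay within these windows by its distance from the rn5 start, and their sequences are shown because no other receptor gene had a peak there. The place of the peak in the GRCr8 sequence was not determined. Capitals mark the ATG at the annotated start and each TAATTA, a motif of the homeodomain type bound by factors such as Lhx2. The windows are chr7:3842694-3842993, minus strand, for Olr936, chr7:2157006-2157305, minus strand, for Olr879 (now named Or6c38), and chr8:47212228-47212527, plus strand, for Olr1219 (now Or8c13), all on GRCr8.
Olr936: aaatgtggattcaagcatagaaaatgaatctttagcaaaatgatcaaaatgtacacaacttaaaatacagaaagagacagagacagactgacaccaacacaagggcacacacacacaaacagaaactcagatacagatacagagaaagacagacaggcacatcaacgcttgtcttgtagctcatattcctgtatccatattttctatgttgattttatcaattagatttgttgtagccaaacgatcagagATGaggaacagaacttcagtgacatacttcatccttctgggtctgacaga
Olr879: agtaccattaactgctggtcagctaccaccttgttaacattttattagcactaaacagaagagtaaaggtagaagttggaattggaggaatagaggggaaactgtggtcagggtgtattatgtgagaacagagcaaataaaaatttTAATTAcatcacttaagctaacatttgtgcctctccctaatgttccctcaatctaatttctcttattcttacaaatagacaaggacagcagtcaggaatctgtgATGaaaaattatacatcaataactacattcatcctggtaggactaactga
Olr1219: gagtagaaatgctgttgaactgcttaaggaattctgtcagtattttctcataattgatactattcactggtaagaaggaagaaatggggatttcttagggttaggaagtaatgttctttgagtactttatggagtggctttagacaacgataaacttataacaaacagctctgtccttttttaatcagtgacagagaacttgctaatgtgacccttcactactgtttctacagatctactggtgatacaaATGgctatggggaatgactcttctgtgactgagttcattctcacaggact
Olr936 had its peak 37 bp upstream of the start, at chr7:16597115-16597170 of rn5, and its signal was 5.47. The peak of Olr879 was 223 bp upstream, at chr7:3690988-3691043, and had a signal of 5.28. Olr1219 had a pair of such peaks, because the authors' annotation places this gene at 3 loci. One lay 152 bp upstream at chr8:41237213-41237268 (signal 3.15), and the other 154 bp upstream of another copy, at chr8:41896536-41896591 (signal 3.14). Reads from such copies cannot be told apart by these files.

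The receptor windows as a class were rich in A and T, but they surround start codons and cannot be read as receptor promoters. The annotated start was an ATG in 98.3% of the 1032 receptor windows, against 11.6% of all 24206. The comparison is therefore between unlike kinds of start. The median GC content was 35.3% over the 1032 receptor windows, against 52.7% over all 24206. Each motif was searched on both strands. TAATTA stood in 197 receptor windows (19.1%, 16.7 to 21.6), against 5.37% of all windows. TAATGA, also of the homeodomain type, stood in 286 (27.7%), against 10.8%. The TATA box sequence TATAAA stood in 389 (37.7%), against 14.3%. These motifs consist mostly of A and T, and the part of base composition in these contrasts was not tested. The palindromic Olf-1 motif, of the type bound by Ebf factors, was in 0 of 1032 receptor windows and in 0.830% of all windows. The count of 0 allows at most 0.291%. TAATTA was about as frequent in the 691 genes with an assigned peak (18.2%, 15.4 to 21.3) as in the 341 without one (20.8%, 16.6 to 25.5). Of the 691, 1 is not among the 1032, and of the 1032, 1 gene outside the naming rule has a peak and is in neither set. TATAAA was in 39.9% of the genes with a peak (36.3 to 43.7) and in 33.1% of those without (28.2 to 38.4), with overlapping intervals. These matches are a description of letters in the window and say nothing of binding.

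Counted per length, receptor coding sequences held few peaks, whereas the sequence 5 to 10 kb away held many. Over the 887 receptor loci shorter than 1500 bp, 19 peaks had their midpoint in the 0.837 Mb of gene models, or 22.7 per Mb (13.7 to 35.4). The density was 29.3 per Mb (19.2 to 43.0) in the 1000 bp upstream and 32.7 (21.9 to 47.0) in the 1000 bp downstream, with intervals that overlap that of the gene models. From 1 to 5 kb it was 76.8 per Mb upstream and 98.3 downstream. From 5 to 10 kb it reached 130 per Mb upstream (571 peaks, 120 to 142) and 154 downstream (673 peaks, 142 to 166). Other genes with models of similar kind had their highest density in the model and next in the 1000 bp upstream of it. In 225 other coding-only models of 600 to 1499 bp, the density was 303 per Mb within the model (238 to 381), 143 in the 1000 bp upstream and 62.5 in the 1000 bp downstream. From 5 to 10 kb it was 97.4 upstream and 76.9 downstream. Both sets hold only genes with an assigned peak, which raises the densities around them.

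**Figure D1:**
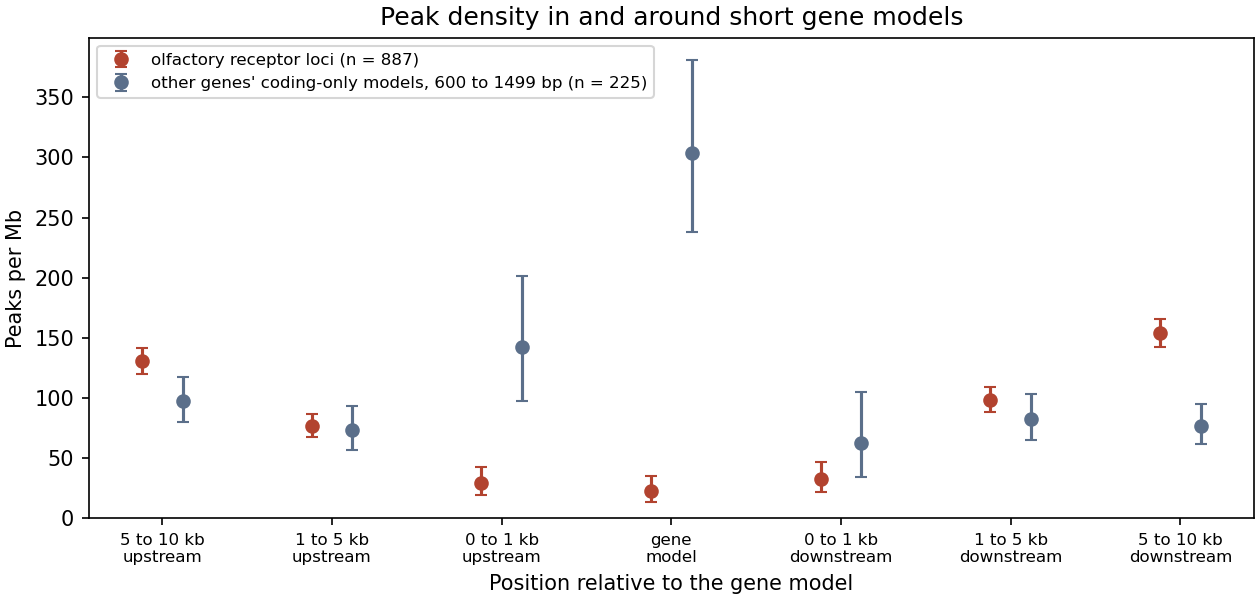
Peaks per Mb (y axis) in 7 stretches in and around short gene models (x axis, upstream to downstream), for 887 olfactory receptor loci and 225 coding-only models of other genes. Points are densities and bars exact 95% Poisson intervals, for counting error only. The receptor loci have their lowest density in the gene model, 22.7 per Mb, where the other genes have their highest, 303 per Mb.

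The low density in coding sequences was found on most chromosomes. It was below that of the sequence 5 to 10 kb to either side on 14 of 16 chromosomes, and 9 of the 16 had 0 coding peaks. The exceptions were chromosome 9, where 1 peak fell in 5 loci, and chromosome 19, which had 0 peaks in both at its 2 loci. Chromosomes 2, 5, 13, 17 and X also had 0 coding peaks, but with 5 to 16 loci each these counts of 0 tell little. On chromosome 3, with 211 loci, there were 3 coding peaks (15.1 per Mb) and 316 in the flanks (156 per Mb). On chromosome 8, with 95 loci, there were 0 and 108. Without the 64 genes that the annotation places at more than 1 locus, the coding density was 21.0 per Mb (11.8 to 34.7). How many of these sequences have near-identical copies elsewhere, which share reads, was not tested.

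The 19 coding peaks belonged to 19 genes. The highest was that of Olr232, 754 bp into a coding length of 948 bp, at chr1:178200763-178200818, where the signal was 5.66. Olr916 followed with 4.73 at 124 bp, and Olr1744, in the receptor cluster beside the histocompatibility genes of chromosome 20, with 4.49 at 431 bp. Olr101 had 3.99 at 428 bp. The other 15 had signals of 2.42 to 3.18. Of the 19, Olr232 alone was in the upper 10% by signal of the table, which starts at 5.28.

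**Figure D2:**
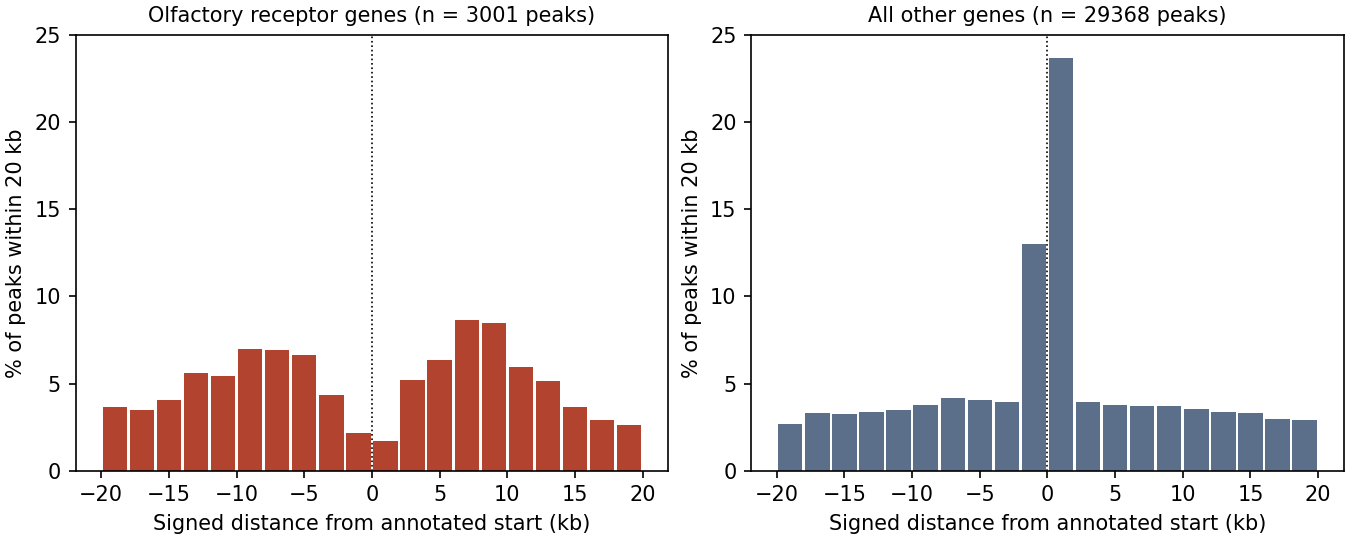
Share of the peaks within 20 kb of the annotated start that fall in each bin of 2 kb (y axis, percent), against the signed distance in kb (x axis, negative is upstream), for olfactory receptor genes on the left and all other genes on the right. Receptor peaks are fewest in the 2 bins next to the start, 2.17% and 1.73%, where those of the other genes are most frequent, 13.0% and 23.6%.

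The same dip stood in the distances from the start. Of the receptor peaks within 20 kb, 65 lay in the 2 kb upstream and 52 in the 2 kb downstream, whereas the bin from 6 to 8 kb downstream held 260. Peaks of the other genes numbered 3825 in the 2 kb upstream and 6944 in the 2 kb downstream, and 789 to 1224 in each bin further out. The dip was not particular to olfactory receptors. Vomeronasal receptors had 27 peaks in the 2 kb upstream (3.52%) and 14 in the 2 kb downstream (1.83%), and 21 to 54 in each bin further out. Trace amine and taste receptors, with 70 peaks within 20 kb, had 6 and 1 in these 2 bins. A peak is assigned to its nearest gene, so the decline beyond 10 kb from a receptor gene is also limited by how close the next gene lies. The median distance was 25.5 kb for receptor peaks and 124 kb for the peaks of all other genes.

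The median signal of receptor peaks was slightly below that of the rest, a difference not seen once peaks up to 1000 bp apart were merged (3.18 in both sets). Over all 6809 the median signal was 2.96 (2.94 to 2.98), against 3.03 (3.02 to 3.04) for the peaks of all other genes, and the range was 2.00 to 27.7, against 2.00 to 899. The upper 10% by signal of the table, from 5.28 upwards, held 496 receptor peaks (7.28%, 6.68 to 7.93), beside 10.1% of the other peaks and 10.0% of the table. The upper 1% held 30 (0.441%), beside 1.03%. The median −log10 q-value was 2.72 for receptor peaks and 2.78 for the others. The share in the upper 10% was below that of the other genes on 14 of 16 chromosomes. The exceptions were chromosome 8, with 13.9% against 11.6%, and chromosome 19, with 13.9% of 36 peaks against 13.7%.

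By distance the contrast was widest next to the start. Within 1000 bp, 3 of 48 receptor peaks were in the upper 10% by signal (6.25%, 1.31 to 17.2), against 3400 of 9127 peaks of the other genes (37.3%, 36.3 to 38.3). The median signal there was 2.99 against 4.37, and the highest 5.66 against 30.3. From 5 to 20 kb the shares were 6.23% (5.29 to 7.27) at receptor genes and 10.9% at the others, and beyond 200 kb 6.27% (5.11 to 7.59) and 7.07%. From 50 to 200 kb the receptor share was 12.6% (10.8 to 14.7), against 7.98%. Most of this excess rested on 1 cluster, on chromosome 8 from Olr1194 to Olr1314. Without that cluster 73 of 828 receptor peaks of the bin, or 8.82%, were in the upper 10%, near the 7.98% of the other genes.

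**Figure D3:**
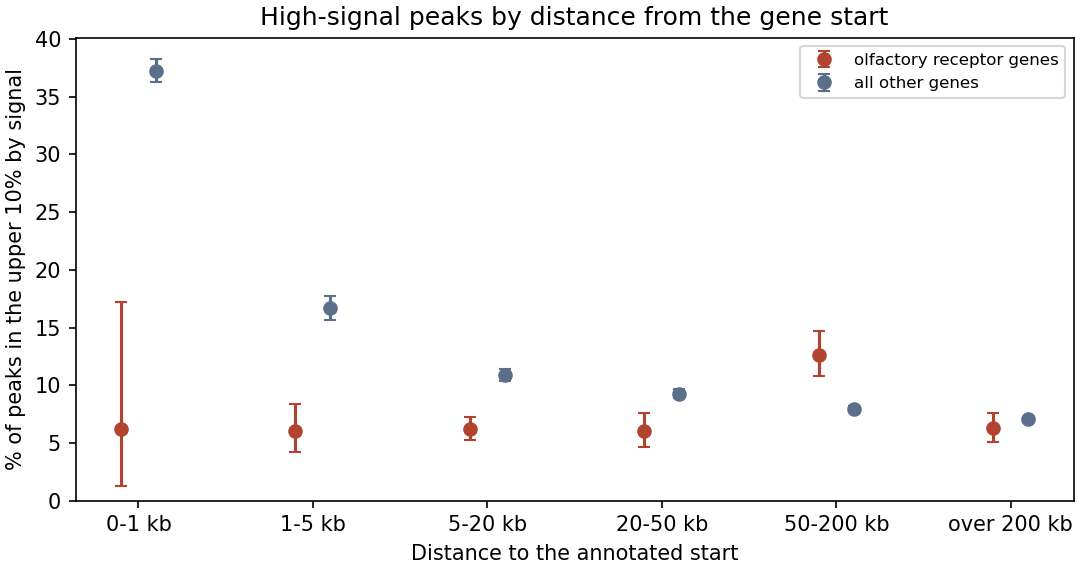
Share of peaks in the upper 10% by signal of the whole table (y axis, percent) by distance to the annotated start (x axis, 6 bins), for olfactory receptor genes and all other genes. Points are shares and bars exact 95% binomial intervals. Within 1 kb the receptor peaks reach 6.25% and the other peaks 37.3%.

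The near peaks of highest signal after Olr232, Olr936 and Olr879 were those of Olr754, 868 bp upstream of its start on chromosome 3 with 4.73, and Olr916. Olr1735 and Olr1744, both on chromosome 20, had 4.49 each, at 616 bp upstream and 431 bp downstream. Olr396 on chromosome 3 had 4.48 at 373 bp upstream, Olr221 on chromosome 1 had 4.39 at 495 bp upstream, and Olr1507 on chromosome 10 had 4.15 at 978 bp downstream. Besides Olr1219, Olr221 was the gene with more than 1 such peak, the other lying 879 bp upstream with 2.75. Of the 48 near peaks 25 lay upstream and 23 downstream, and 0 over the start itself. Of the 9127 near peaks of the other genes 719 lay over the start, 5373 downstream and 3035 upstream. The starts are of unlike kinds, and 48 peaks are too few to read much from the 0.

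The highest peaks of the receptor set stood apart from the coding sequences. The first was 19.3 kb downstream of the start of Olr1460, at chr10:44584222-44584277, and its signal was 27.7. It lay among 4 peaks assigned to that gene, within 6.99 kb of each other. The second was 22.9 kb upstream of Olr402, at chr3:21271750-21271805, with 18.7, and a neighbour 21.9 kb upstream had 11.6. Olr8 on chromosome 1 had a peak of 16.4 at 157 kb upstream, and Olr745, at the end of the largest cluster on chromosome 3, one of 15.5 at 6.18 kb upstream. Olr1192 and Olr1171, both on chromosome 8, had peaks of 15.2 at 39.4 kb and 15.1 at 15.4 kb upstream, and Olr1171 had another of 12.9 at 14.3 kb. Olr411 had 14.9 at 63.2 kb downstream, Olr898 12.3 at 83.8 kb upstream, Olr285 12.2 at 102 kb downstream and Olr1217 12.02 at 158 kb downstream.

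Receptor clusters as stretches of chromosome held more peaks per length than the rest of the genome. Receptor loci no more than 1 Mb apart were joined, and stretches with at least 5 genes were kept, which gave 31 clusters with 49.1 Mb in all. They held 4720 annotated peaks, or 96.2 per Mb (93.4 to 98.9), against 54.5 per Mb in the 2837 Mb outside them, a ratio of 1.76. The density was above that of the same chromosome in 27 of 31 clusters, with the interval above it in 24 and below it in 0. The excess was larger among weak peaks. Peaks below the median signal numbered 50.6 per Mb inside and 27.2 outside, and those in the upper 10% numbered 7.84 and 5.48. Of the 385 peaks of the upper 10% inside, 96 lay in 1 cluster, on chromosome 8 from Olr1194 to Olr1314. Vomeronasal receptor clusters, joined by the same rule, had 110 per Mb (105 to 115) in 9 clusters. There too the excess was larger among weak peaks. Those below the median numbered 61.4 per Mb inside and 27.4 outside, and those in the upper 10% 7.85 and 5.51. Only genes with an assigned peak could define a cluster, which favours stretches with peaks. Of 23 windows of 1 Mb that lay wholly inside a receptor cluster, the median held 84 peaks and the lowest 52, against a median of 51 over all 2777 windows with a peak.

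**Figure D4:**
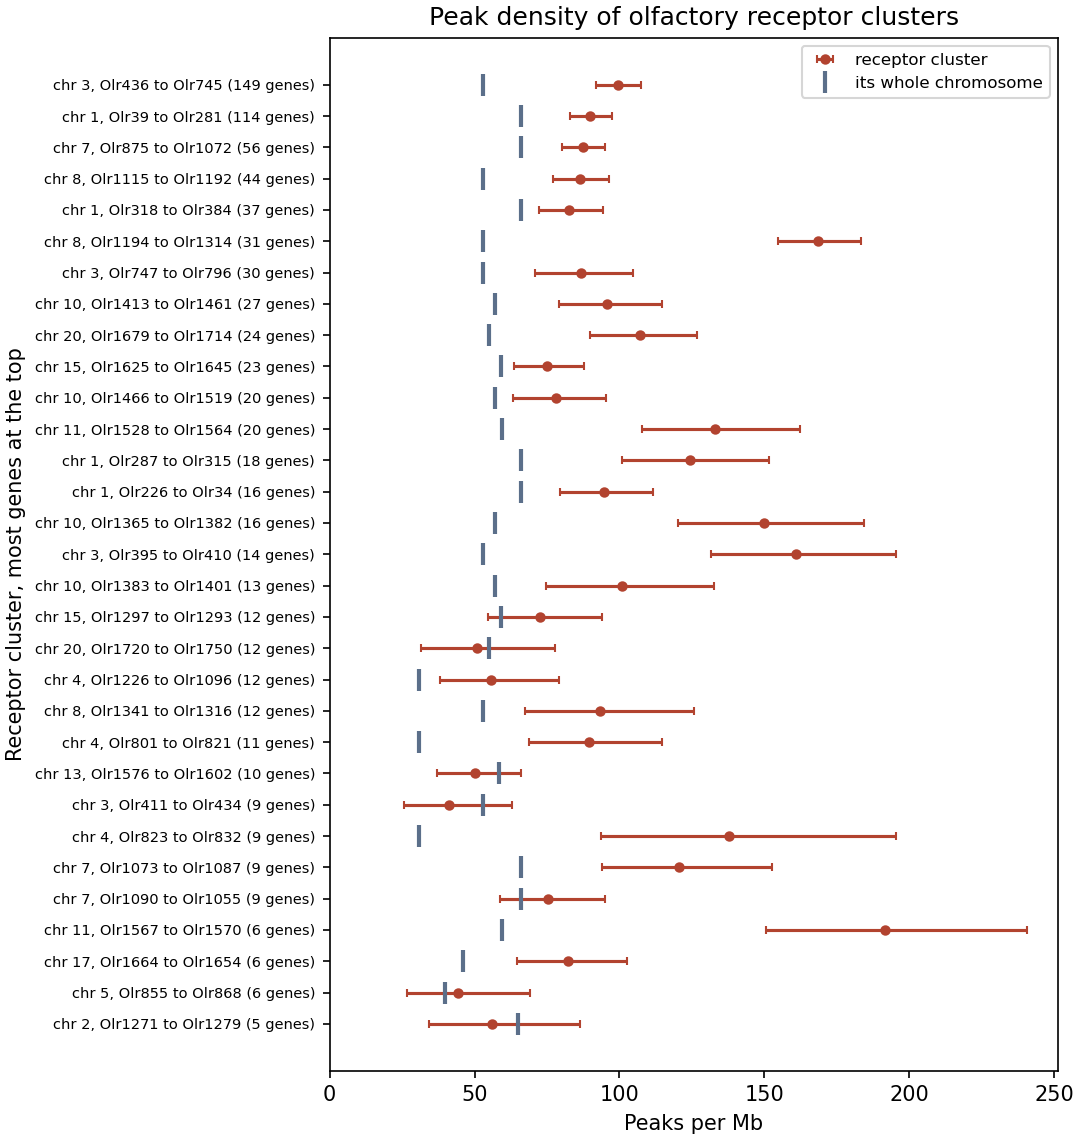
Annotated peaks per Mb (x axis) in 31 olfactory receptor clusters (y axis, ordered by number of genes), with exact 95% Poisson intervals, and the density of the whole chromosome as a vertical mark. In 27 clusters the point lies to the right of the mark. The highest density is 192 per Mb, in the chromosome 11 cluster from Olr1567 to Olr1570, against 59.7 for chromosome 11. The chromosome 8 cluster from Olr1194 to Olr1314 has 169 per Mb, against 53.1 for chromosome 8.

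The largest cluster, from Olr436 to Olr745 on chromosome 3, held 149 receptor genes and 662 peaks in 6.65 Mb, or 99.5 per Mb (92.1 to 107), against 52.9 on the whole chromosome. All 662 were assigned to receptor genes. At its ends, Olr436 had 2 peaks, the higher with 3.75, and Olr745 had 6. The next, from Olr39 to Olr281 on chromosome 1, held 114 genes and 601 peaks, or 89.9 per Mb, against 66.1. Its first gene Olr39 had 1 peak of 2.43 and its last gene Olr281 had 14, the highest with 5.18. The chromosome 7 cluster from Olr875 to Olr1072 held 56 genes and 558 peaks, or 87.4 per Mb, against 66.1. There Olr875 had 4 peaks of at most 3.70 and Olr1072 had 9 of at most 5.28. The clusters below their chromosome were Olr411 to Olr434 on chromosome 3 (41.2 per Mb, 25.5 to 63.0), Olr1576 to Olr1602 on chromosome 13 (50.1), Olr1720 to Olr1750 on chromosome 20 (50.9) and Olr1271 to Olr1279 on chromosome 2 (56.02). In each of these 4 the interval took in the value of the chromosome.

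The chromosome 8 cluster from Olr1194 to Olr1314 differed from most others in both number and height of its peaks. It held 546 peaks in 3.24 Mb, or 169 per Mb (155 to 183), with a median signal of 3.30, and 96 of them (17.6%) were in the upper 10% of the table. Olr1217, which has 176 peaks, belongs to it, and all 176 lay downstream of the gene within 227 kb. They include a run of 20 peaks from 40818205 to 40826421, in which the highest signal was 6.00. Olr1219, also in this cluster, had 97 peaks, all upstream. The longest runs of the receptor set, those of 14 to 20 peaks with starts no more than 1000 bp apart, were all at Olr1217, Olr1218 and Olr1229 on this chromosome. Of all receptor peaks 59.7% lay in such runs of 2 or more, against 51.3% of the others.

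Peaks were unevenly spread over the genes. The median was 4 peaks a gene (quartiles 2 and 9), 193 genes (23.3%) had 1 peak, and 16 had more than 50. The 10 genes with the most peaks took 1769 of the 6809, or 26.0%, at a median distance of 886 kb, against 15.5 kb for the remaining genes. Olr1065 took 531 peaks on chromosome 13, all downstream of it and up to 6052 kb away, and a further 8 at a copy on chromosome 7. Olr1064, its neighbour, took 172, all upstream and up to 1561 kb away. Olr1645 on chromosome 15 had 158 peaks, of which 157 were upstream, from 544 bp to 1961 kb away, and 1 downstream. Olr901 on chromosome 11 had 145, up to 1377 kb away. Olr410 and Olr411, which face the same gap on chromosome 3, had 140 and 119, the farthest 2223 kb and 2194 kb away. Olr905 had 100 peaks on chromosome 1, 19 at a copy on chromosome 2 and 9 at a copy on chromosome 7. Olr1570 on chromosome 11 had 95. In all, 4209 receptor peaks (61.8%) lay inside a cluster, at a median of 13.5 kb from their gene, and 2600 outside, at a median of 358 kb. The median signal was 2.97 inside and 2.95 outside.

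Genes of the whole receptor family were counted from RefSeq, since the table lists only genes with a peak. Of 1222 protein-coding receptor genes with a curated transcript, 824 had an assigned peak (67.4%, 64.7 to 70.1), beside 75.2% of the other 17317 genes and 74.7% of all 18539. A peak within 1000 bp of the start was found at 47 (3.85%, 2.84 to 5.08), beside 34.9% of the other genes and 32.9% of all. Both counts include 1 RefSeq receptor gene, Olr1l in the table, that the naming rule leaves out, and 46 of the 47 are among the 828 genes. Class I receptors, the fish-like receptors of families 51 to 56, had a peak in 74 of 134 genes (55.2%, 46.4 to 63.8). Class II receptors, those of the other numbered families, had one in 712 of 1022 (69.7%, 66.7 to 72.5). The intervals did not overlap. Where genes lie close together a peak can be nearest to only 1 of them. The median distance of a peak was 8.85 kb for class I and 30.4 kb for class II genes, and the part of gene spacing in the difference was not tested. The median signal was 2.93 for class I and 2.96 for class II. Near the start, 2 class I genes (1.49%, 0.181 to 5.29) and 41 class II genes (4.01%, 2.89 to 5.40) had a peak, with overlapping intervals.

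**Figure D5:**
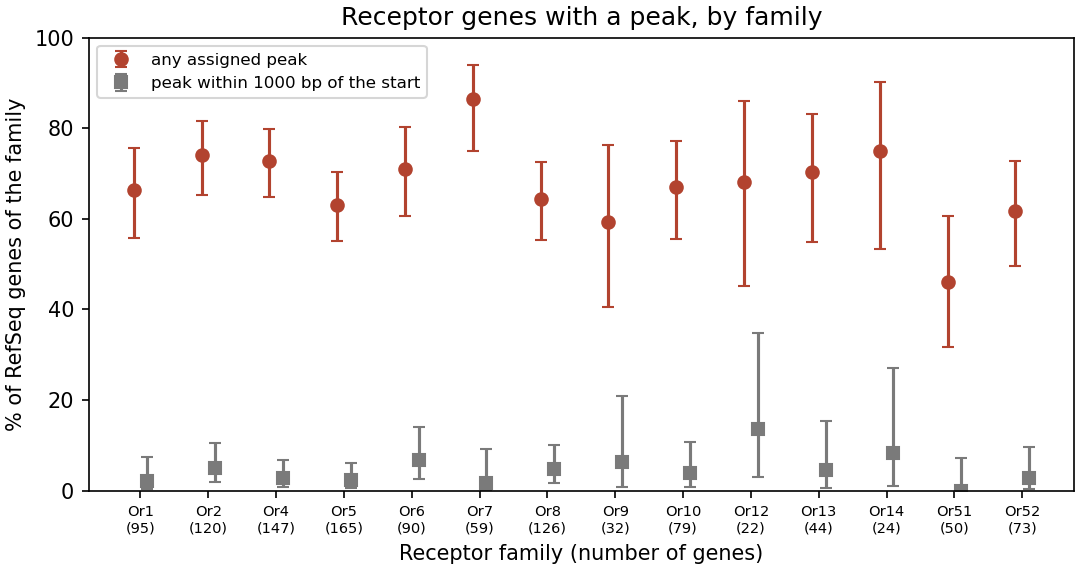
Percent of RefSeq genes with any assigned peak and with a peak within 1000 bp of the start (y axis), for the receptor families of at least 20 genes (x axis, with the number of genes). Bars are exact 95% binomial intervals. Family 7 is highest for any peak with 86.4% and family 51 lowest with 46.0%.

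Among the families of at least 20 genes, the share with any assigned peak ran from 46.0% in family 51 (23 of 50, 31.8 to 60.7) to 86.4% in family 7 (51 of 59, 75.02 to 94.0). Family 51 is a class I family, as is family 52, with 45 of 73 (61.6%). The large class II families 4, 5 and 8 had 72.8% of 147, 63.0% of 165 and 64.3% of 126. Neighbours in this order had overlapping intervals. With a peak near the start, each family had at most 6 genes, and family 12 had the highest share, 3 of 22 (13.6%, 2.91 to 34.9). Family 51 had 0 of 50, for which the limit of 3 counts is 6% and the exact interval reaches 7.11%.

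The 3 shorter lists had few peaks in the receptor clusters, at shares not distinguishable from that of the long one. The M2 list of α1ACT cells had 2 of 81 there (2.47%, 0.300 to 8.64) and the empty-vector M2 list 4 of 244 (1.64%, 0.448 to 4.14). The full α1ACT 1804 list had 4724 of 161730 (2.92%) and the empty-vector 1804 list 4 of 272 (1.47%, 0.402 to 3.72). The intervals of the 3 shorter lists took in 2.92%. Their peaks fell on 5 sites. The site on chromosome 1 at 219880574, 10.1 kb from the start of Olr297, was in all 4 lists, with a signal of 80.0 in α1ACT M2, 88.1 in empty-vector M2, 90.5 in α1ACT 1804 and 84.0 in empty-vector 1804. A site on chromosome 7 at 4333708, 48.4 kb from Olr984, was also in all 4, with 57.2 in α1ACT M2, 91.2 in empty-vector M2, 75.2 in α1ACT 1804 and 52.2 in empty-vector 1804. A site on chromosome 15 at 31738772, 91.8 kb from Olr1637, was in 3 lists, with 111 in α1ACT 1804, 109 in empty-vector 1804 and 28.4 in empty-vector M2. At 39885221 on the same chromosome both 1804 lists had a peak, of 16.6 in α1ACT and 15.0 in empty-vector cells. At 4333006 on chromosome 7 a peak of 20.2 was in the empty-vector M2 list. None of the 5 is in the α1ACT-only table. How signal is scaled between libraries is not stated, so these values are not compared across lists.

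Of 35 genes listed for olfactory signalling and receptor choice, 29 had an assigned peak and 10 (28.6%, 14.6 to 46.3) one within 1000 bp of the start, near the 32.9% of all RefSeq genes. Of 14 signal transduction genes 3 had a near peak. Ric8b, the exchange factor that acts on the olfactory G protein, had 8.28 at 129 bp upstream, and the ion cotransporter Slc12a2 8.22 at 598 bp upstream. The adenylyl cyclase Adcy3 had 3.10 at 218 bp upstream. The olfactory G protein Gnal, the channel subunit Cnga2 and the marker Omp had their nearest peaks at 52180, 71750 and 5784 bp. Of the 3 receptor trafficking genes, Rtp1, Rtp2 and Reep1, 0 had a near peak. Of 18 genes for receptor choice and the olfactory lineage, 7 did. The histone demethylase Kdm1a, which lifts the silencing marks of the chosen receptor, had 9.92 at 43 bp upstream, and Neurog1, a proneural factor, 8.71 at 972 bp upstream. Ebf3 had 4 near peaks, the highest with 6.57, and Lhx2 had 3, the highest with 5.93. Ldb1, the partner of Lhx2, had a peak of 6.25 over its start. Ebf1 had a near peak of 2.80, at 715 bp upstream.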

How the data were processed

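The authors deposited a peak list for each of 4 precipitated libraries and an annotated table of the α1ACT 1804 peaks. FastQC 0.11.2, BWA 0.7.5a, DiffBind, ChIPseeker, HOMER and the build rn5 are named in the submitters' processing notes. Not given in the sources used here are the peak caller's settings, the scaling of the signal and the treatment of reads that match several places. The labels' protocol describes the precipitation with the anti-FLAG antibody M2 only. Each deposited list gives a signal and a −log10 q-value per peak of 56 bp, and the authors' table gives the nearest gene, its distance and the annotated feature. Signal was joined to the table by chromosome and start.

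From these files scripts in Python 3.11.15 (pandas 2.3.3, numpy 2.4.6, scipy 1.17.1) counted peaks by feature, distance, gene, cluster and length of sequence. Shares have exact Clopper-Pearson intervals, densities exact Poisson intervals and medians order-statistic intervals, and the scripts were tested on simulated data. A count of 0 is given the limit of 3 counts. Classes, families and promoter sequences came from RefSeq tables of the GRCr8 assembly, matched by gene ID for 824 of 828 genes, with no coordinates carried over from one build to the other. The genes named are the 10 with the most peaks, the highest peak or the highest peak near the start, those with 2 such peaks, the ends of the 3 largest clusters and, for the 35 pathway genes, the 5 highest near the start. The other pathway genes, coding peaks, family extremes and runs were named after their values were seen. The members, lists and motifs were chosen with earlier results of these data known. With 1 library a group, no test between conditions was made. The values of 1 pathway gene that enters the counts are not reported here.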

Additional observations from a re-analysis of the deposited data

How the results depend on the processing

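Of 36 alternatives over 7 results, 18 left the value within its interval, and the others moved it. Some alternatives, such as another distance or only the peaks of higher signal, change the measured quantity itself. The tally is therefore no measure of robustness. The share of receptor peaks near the start was 0.279% within 500 bp, 3.70% within 3000 bp and 1.18% after peaks up to 1000 bp apart were merged, beside 4.73%, 7.83% and 6.37% for the other genes. The share of receptor genes with such a peak was 2.17% within 500 bp, 22.6% within 3000 bp and 2.54% for the upper 50% by signal. Distal intergenic peaks made up 92.9% of the upper 10%, 87.6% within 50 kb and 90.6% without the 5 genes with the most peaks. The median signal was 2.90 within 50 kb and 3.18 after merging, which was also 3.18 for the other genes. The share in the upper 10% was 6.15% within 50 kb and 10.3% after merging, against 15.7% and 13.7% for the other genes, and 0.441% for the upper 1%. Without the chromosome 8 cluster from Olr1194 to Olr1314 it was 6.39%. Cluster density was 91.0 per Mb without that cluster and 7.84 per Mb for the upper 10%. Coding density was 9.55 per Mb for the upper 50% by signal. The settings that leave out that cluster or genes at several loci, and all those for the coding density, were chosen after seeing the data. No paired analysis was possible because each group holds 1 library. The depth of the libraries is unknown, and reads shared by near-identical receptor genes cannot be counted from these files.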

Other observations

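Of the 236 receptor peaks in introns, 145 lay in introns of 14 receptor genes and 91 in introns of other genes. Olr665, whose model spans an intron, held 41 of them, among them the peak of 12.01 that is assigned to its neighbour Olr666. Fchsd2 and Rgs7bp, which are not receptors, held 23 each. The 1 receptor peak in an exon lay in exon 21 of 23 of Gabbr1, a subunit of the GABA-B receptor, and was assigned to Olr1750 with a signal of 2.98.

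The annotation places 64 receptor genes at more than 1 locus, 13 of them on more than 1 chromosome. These 64 hold 1437 peaks, or 22.5 a gene, against 7.03 a gene for the 764 genes with 1 locus. The share of peaks near the start was 0.557% and 0.745% in these sets.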
